A study of Gallus gallus with 4 samples.

Results

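The differences from control that were left 24 hr after removal of the occluder were measured as log2 expression on the FD 24 hr array minus that on the control array, where FD stands for form deprivation. Of 13051 genes measured, 6101 averaged more than 6.28 in log2 over the 4 arrays of the series, a limit set at the 60th percentile of all probe set averages, and these genes are described. They comprise 5828 genes that are not on a sex chromosome (83 of them unplaced), 269 genes on the Z chromosome and 4 genes on the W chromosome. Z- and W-linked genes are set apart throughout. A log2 difference of 1, which is a 2-fold difference, was the size at which a gene was counted as higher or lower.

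Form deprivation blurs the retinal image of a growing eye, and the eye elongates and becomes myopic. When the occluder is removed, the image falls in front of the retina of the elongated eye, growth slows and refraction returns towards normal over days. The visual signal arises in the retina and is thought to pass through the retinal pigment epithelium (RPE) and the choroid to the sclera.

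The FD 24 hr array held RNA pooled from 5 chicks whose right eyes had worn an occluder and had then seen normally for 24 hr. The control array held RNA from 5 chicks raised with no lens. The series has 2 more arrays, FD 0 hr and FD 6 hr, each of 5 pooled chicks taken 0 and 6 hr after removal. All were Leghorn/New Hampshire chicks labelled male and kept under a 12-hr day/night cycle, and each pool held retina, RPE and choroid of right eyes. The age is given as post-hatch day 12 for FD 24 hr and day 11 for control, FD 0 hr and FD 6 hr. The chicks of FD 24 hr were thus older by a day than all others. Where FD 24 hr alone stood high or low, age and recovery cannot be told apart. The labels give 7 days of form deprivation in one field and 10 days of occluder wear in the protocol. With 1 array of pooled chicks on each side there was no replicate check, no test was possible and no p-value is given. In pooled tissue, fewer cells of a type and less RNA per cell cannot be told apart.

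The pools were not alike in their sex-linked transcripts, although all chicks are labelled male. HINTW, a gene of the W chromosome that only hens carry, stood at 5.33 at FD 24 hr and 9.36 in the control pool, with 5.51 at FD 0 hr and 5.37 at FD 6 hr. Thus the control array carried HINTW RNA that the other arrays did not show, and the control pool goes against its label. How far this difference in sex enters the genes outside the sex chromosomes was not tested. The spiked controls also differed. The hybridisation control bioC averaged 6.99 at FD 24 hr and 9.92 in the control pool, with 9.75 at FD 0 hr and 6.93 at FD 6 hr, and the poly-A control dap averaged 7.30 and 9.07, with 9.78 and 7.69. FD 24 hr minus control therefore spans a technical difference between arrays, whose part in the results was not tested. GAPDH control probe sets were at 13.95 at FD 24 hr and 14.04 in the control pool, and the gap between its 3′ and 5′ probe sets was 0.09 on both. For EF1a the gap was 1.30 at FD 24 hr and 1.21 in the control pool. The gap of actin was 2.85 and 2.54, with 3.72 at FD 0 hr and 2.39 at FD 6 hr, so it was not alike on all arrays. What this gap does to the other genes was not tested. The medians over all 38535 probe sets were 5.74 on both arrays, which the normalisation of the deposited values brings about.

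The single markers picked here for the RPE, cones and Müller glia were bright in both pools, while the one picked for endothelium was dimmer. RPE65, the isomerase of the visual cycle in the RPE, stood at 12.75 at FD 24 hr and 13.09 in the control pool. GNAT2, the cone transducin, stood at 12.44 and 12.37, and GLUL, the glutamine synthetase of Müller glia, at 12.40 and 12.76. CDH5, a cadherin of endothelium, stood at 7.90 and 8.09. Not all choroidal markers were dim, since DCN of the stroma stood at 11.22 and 11.01. The RPE genes above the limit had median levels of 8.375 at FD 24 hr and 8.7 in the control pool. Those of endothelium had 7.395 and 7.915, so the picked markers do not stand for their lists. Of 13 measured skeletal muscle genes 2 were above the limit, and of 15 of scleral cartilage 4. Of 19 endothelial genes 8 were above it, and of 20 of fibroblasts and stroma 8, beside 46.7% of all genes measured.

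Most genes stood close to control after 24 hr of recovery. Outside the sex chromosomes, 31 genes were higher by 1 or more at FD 24 hr (0.532% of 5828) and 85 were lower by 1 or more (1.46%). With a gene read from its brightest probe set in place of the median of its probe sets, 62 were higher and 103 lower. The median difference was -0.05, the middle of the genes lay between the 25th percentile of -0.25 and the 75th of 0.15, and 85.5% of the genes differed by less than 0.5. A difference of 1.5 was reached by 5 genes in the higher direction and by 14 in the lower. Between probe sets that read the same gene, the difference had an SD of 0.31 over 3081 genes. This SD covers probe sets on the same 2 arrays and not chicks, pools or hybridisations, for which these arrays give no measure of error. Of the 31 higher genes 17 rested on 1 probe set, and in 10 of the other 14 all probe sets went the same way. Of the 85 lower genes 53 rested on 1 probe set, and in 21 of the other 32 all probe sets went the same way. Of the 31 higher genes 9 were under the limit of 6.28 in the control pool, and of the 85 lower genes 16 were under it at FD 24 hr, so that they passed the limit through other arrays and their differences rest on dim signals. Outside the sex chromosomes, the dim higher genes named below are LGALS1A, GSTA3, UBXN4, RIOK1, SUCLG2, ASPA and CH25H. The dim lower genes named below are KCNA2, SECISBP2L, BCAR1, VASH2, MGEA5, HS6ST3 and CYP26A1. The lower genes did not gather at one expression level, with 10, 15, 21, 23 and 16 of them in 5 groups of about equal size from dim to bright.

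**Figure D1:**
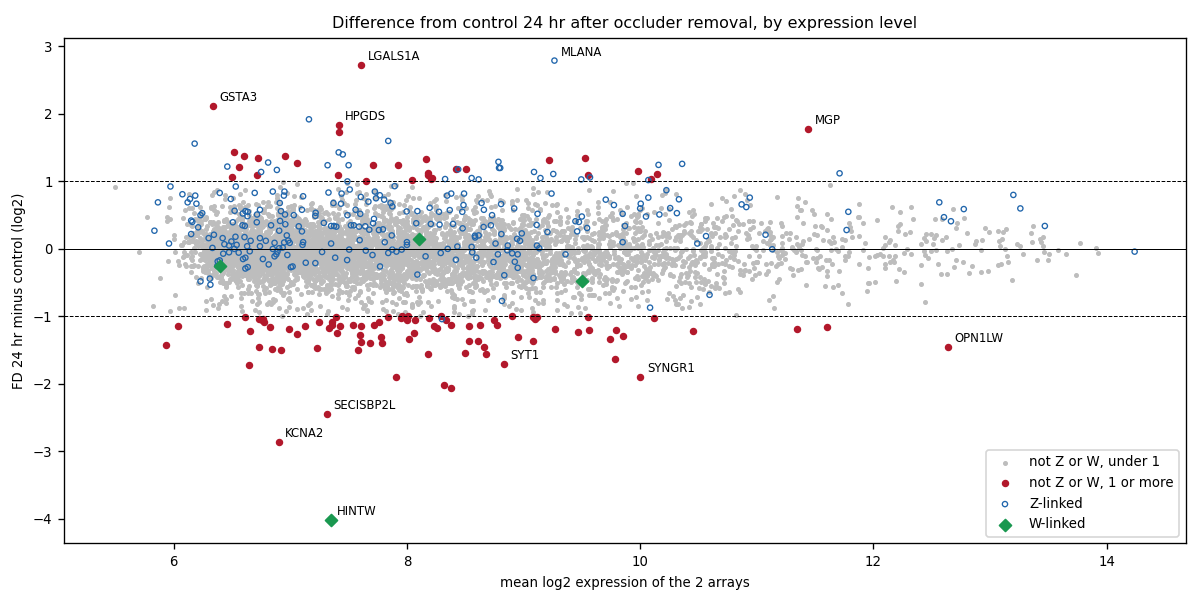
Difference between the FD 24 hr and control arrays (log2) against the mean log2 expression of these 2 arrays for the 6101 genes, with genes not on Z or W past 1 in red, Z-linked genes as open blue circles and W-linked genes as green diamonds. LGALS1A at 2.73 and KCNA2 at -2.86 lie farthest out among the genes not on a sex chromosome, and most Z-linked genes lie above 0.

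The highest differences outside the sex chromosomes belonged to a galectin, a glutathione transferase and a prostaglandin synthase. LGALS1A, a galactoside-binding lectin of the galectin family, stood at 8.97 at FD 24 hr and 6.24 in the control pool, with 9.0 at FD 0 hr and 7.44 at FD 6 hr, a difference of 2.73. GSTA3, which conjugates glutathione to reactive compounds, stood at 7.39 at FD 24 hr and 5.28 in the control pool, with 8.47 at FD 0 hr and 6.76 at FD 6 hr. HPGDS, the haematopoietic synthase of prostaglandin D2, stood at 8.33 at FD 24 hr and 6.50 in the control pool, with 8.80 at FD 0 hr and 7.58 at FD 6 hr. In all 3 the control array was the lowest of the 4, the 6 hr value lay under both other recovery values, and the differences were 2.73, 2.11 and 1.83. Choice by the difference favours a low control value, so the place of the control array is not read as a result. LGALS1A and GSTA3 were under the limit of 6.28 in the control pool. HPGDS had 2 probe sets, at 1.75 and 1.91, while the other 2 genes had 1 each, of a kind that may read several transcripts. The same holds of MRPS10, KRR1, VPS26B, UPF1, SRFBP1, PHAX and KANK1, named below, which have no value once such probe sets are left out.

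MGP, a matrix protein that inhibits calcification, followed another order. It stood at 12.33 at FD 24 hr and 10.55 in the control pool, with 11.09 at FD 0 hr and 12.08 at FD 6 hr, so that FD 24 hr was the highest of the 4 arrays and the difference was 1.78. CRPL1 stood at 8.28 at FD 24 hr and 6.55 in the control pool, with 7.94 at FD 0 hr but 6.22 at FD 6 hr. Both genes rested on 1 probe set.

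Several of the next genes act in the making and folding of proteins. RIOK1 and KRR1, which take part in the maturation of the small ribosomal subunit, were higher by 1.37 and 1.25, but the 4 probe sets of RIOK1 ran between 0.09 and 1.59 and the value was 0.09 once probe sets open to several transcripts were left out. AIMP1, a scaffold of the aminoacyl-tRNA synthetase complex, stood at 9.87 at FD 24 hr and 8.56 in the control pool, with 9.37 at FD 0 hr and 9.46 at FD 6 hr. EIF3L, a subunit of translation initiation factor 3, stood at 8.33 at FD 24 hr and 7.08 in the control pool, with 6.44 and 6.78 at FD 0 hr and FD 6 hr, so that only the FD 24 hr value exceeded control. PDIA4, a disulphide isomerase of the endoplasmic reticulum, stood at 9.10 at FD 24 hr and 7.91 in the control pool, and MRPS10, a mitochondrial ribosomal protein, at 8.83 and 7.50. UBXN4, of endoplasmic reticulum associated degradation, was higher by 1.44 in the median of 5 probe sets, which ran between 0.02 and 1.79. Its mean over probe sets was 0.50, so the count of UBXN4 as higher depended on how probe sets were joined. Not all genes of this role stood higher. EEF2, a translation elongation factor singled out after its value was seen, was lower, at 10.75 at FD 24 hr and 11.94 in the control pool.

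The remaining genes of the 15 were enzymes of metabolism. SUCLG2, a subunit of the succinyl-CoA ligase of the TCA cycle, was higher by 1.37, but its 4 probe sets ran between 0.11 and 2.51 and their mean was 0.76. ASPA, which cleaves N-acetylaspartate, stood at 7.40 at FD 24 hr and 6.05 in the control pool, with 7.30 and 7.32 at FD 0 hr and FD 6 hr. OGT, which attaches O-linked N-acetylglucosamine to proteins, stood at 10.20 at FD 24 hr and 8.85 in the control pool, with 8.97 at FD 0 hr and 9.42 at FD 6 hr. Its 3 probe sets ran between 0.19 and 1.35. MGEA5, which removes the same sugar, was among the lower genes, at 6.10 at FD 24 hr and 7.58 in the control pool, a difference of -1.48.

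Among the lower genes, those with the largest differences included proteins of the axon and the synaptic vesicle. KCNA2, a voltage-gated potassium channel of axons, stood at 5.47 at FD 24 hr and 8.33 in the control pool, with 6.18 at FD 0 hr and 6.88 at FD 6 hr, a difference of -2.86. SYNGR1, a membrane protein of synaptic vesicles, stood at 9.05 at FD 24 hr and 10.95 in the control pool, with 8.99 and 9.31 at FD 0 hr and FD 6 hr. SYT1, the calcium sensor of vesicle fusion, stood at 7.98 at FD 24 hr and 9.68 in the control pool, with 8.49 and 8.87. The control array was the highest of the 4 for these genes, which their choice by FD 24 hr minus control favours. SYT1 is the best measured of them, since its 3 probe sets gave -1.70 to -1.20, while KCNA2 and SYNGR1 had 1 probe set each and KCNA2 was under the limit of 6.28 at FD 24 hr.

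Other lower genes act in sorting, growth factor signalling and adhesion. VPS26B, a subunit of the retromer that recycles membrane proteins, stood at 7.35 at FD 24 hr and 9.41 in the control pool, with 7.44 at FD 0 hr and 8.19 at FD 6 hr. GFRA1, the receptor for glial cell line-derived neurotrophic factor, stood at 7.31 at FD 24 hr and 9.33 in the control pool, with 8.10 and 7.57. BCAR1, an adaptor at focal adhesions, stood at 5.79 at FD 24 hr against 7.51, 6.97 and 7.34 in the control, FD 0 hr and FD 6 hr pools, so that only FD 24 hr stood low. CYTL1, a secreted protein of cartilage, was at 7.90 at FD 24 hr and 9.45 in the control pool, with 9.12 at FD 0 hr and 8.59 at FD 6 hr. CYTL1 was highest in the control pool and lower at each later time of recovery.

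FAM134B, a receptor for the autophagy of endoplasmic reticulum, was lower by 1.55 with 2 probe sets that both went this way. UPF1, the helicase of nonsense-mediated decay, stood at 6.49 at FD 24 hr and 7.96 in the control pool, and VASH2, a vasohibin, at 6.17 and 7.67. RSBN1 was lower by 1.90, and TMEM151B stood at 6.83 at FD 24 hr and 8.33 in the control pool. SECISBP2L, related to the factor for selenocysteine insertion, was lower by 2.45 in the median of 3 probe sets, but its brightest probe set differed by only -0.03. HS6ST3, a 6-O-sulphotransferase of heparan sulphate chains, stood at 6.00 at FD 24 hr and 7.46 in the control pool. Its family members HS6ST1 and HS6ST2, singled out after their values were seen, were at 7.13 and 8.85 at FD 24 hr and 8.43 and 10.09 in the control pool.

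**Figure D2:**
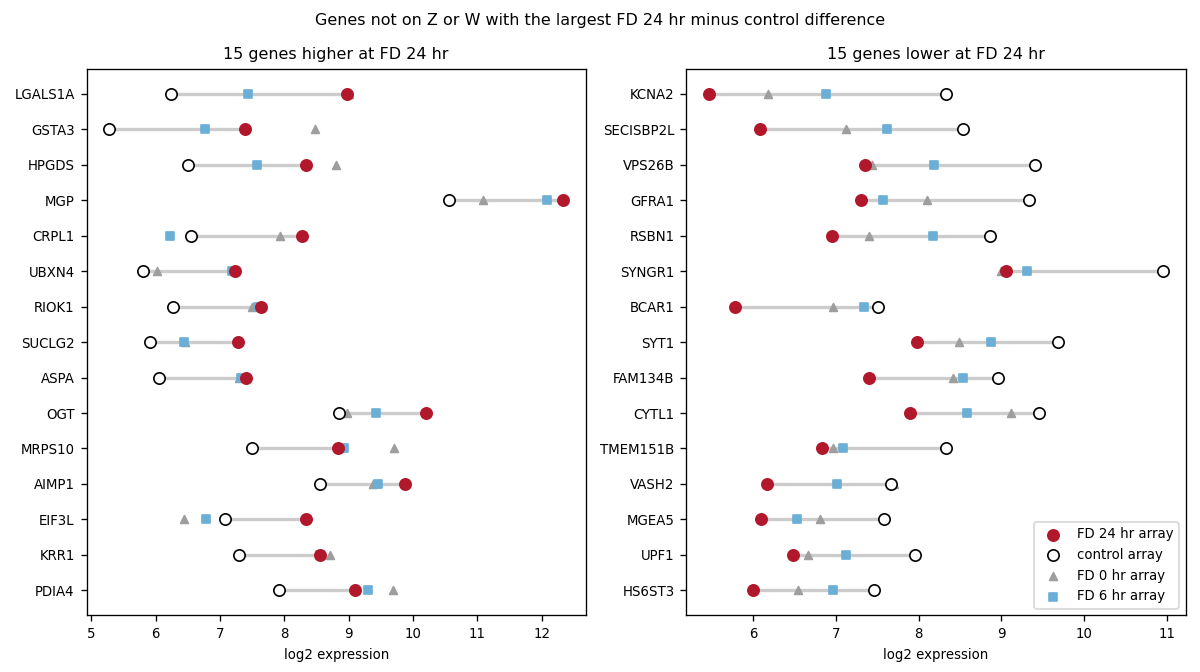
Log2 expression on the FD 24 hr (red), control (open), FD 0 hr (triangle) and FD 6 hr (square) arrays for the 15 highest and 15 lowest differences among genes with a name outside Z and W whose probe sets all go one way. The grey bar joins FD 24 hr and control, from LGALS1A at 8.97 and 6.24 to KCNA2 at 5.47 and 8.33.

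The levels of these genes on the 2 other recovery arrays are given next. The 31 higher genes had median levels of 8.55 at FD 24 hr and 7.30 in the control pool, and of 8.81 and 8.34 at FD 0 hr and FD 6 hr. The 85 lower genes had median levels of 7.41 at FD 24 hr and 8.60 in the control pool, and of 7.76 and 7.95 at FD 0 hr and FD 6 hr. FD 24 hr was the lowest of the 4 arrays for 58 of the 85 lower genes and the highest for 14 of the 31 higher genes. Over all 5828 genes it was the lowest for 1335 and the highest for 980. The choice of the higher and lower genes by FD 24 hr minus control favours an extreme value on either of these arrays. Such counts are therefore not read as a result. The same holds for named genes whose control or FD 24 hr value was the highest or lowest of the 4. At FD 6 hr, 63 of the 85 lower genes (74.1%) and 14 of the 31 higher genes (45.2%) stood above their FD 0 hr level, against 3297 of all 5828 genes (56.6%). The medians of FD 6 hr minus FD 0 hr were 0.25, -0.14 and 0.05. All 4 arrays entered the limit on expression, and FD 0 hr and FD 6 hr lie on different sides of the gap in spiked controls, with bioC at 9.75 and 6.93, whose part in these values was not tested.

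Z-linked genes stood higher as a body at FD 24 hr. Their median difference was 0.35, and 209 of 269 lay above 0, against a median of -0.05 and 2449 of 5828 for the genes outside the sex chromosomes. By 1 or more, 29 were higher (10.8% of Z-linked genes) and 1 was lower (0.372%), so that Z-linked genes made up 48.3% of all genes counted as higher although they are 4.41% of the genes described. Over the chromosomes 1 to 5, 6 to 10 and 11 to 39, the medians were -0.02, -0.04 and -0.08. Of 17 W-linked genes with a measure, 6 were lower by 1 or more, between 3.77 and 5.33 at FD 24 hr and between 5.14 and 9.36 in the control pool. Of the 4 W-linked genes above the limit, HINTW differed by -4.02, and MBD2, LOC107055438 and NEDD4L by -0.47, -0.25 and 0.14. HINTW passed the limit through the control array alone. MBD2 and NEDD4L stood at 9.27 and 8.17 at FD 24 hr, so that not every gene placed on W was low there. The sex of the chicks in the control pool moves with these values, and its part in them was not tested.

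**Figure D3:**
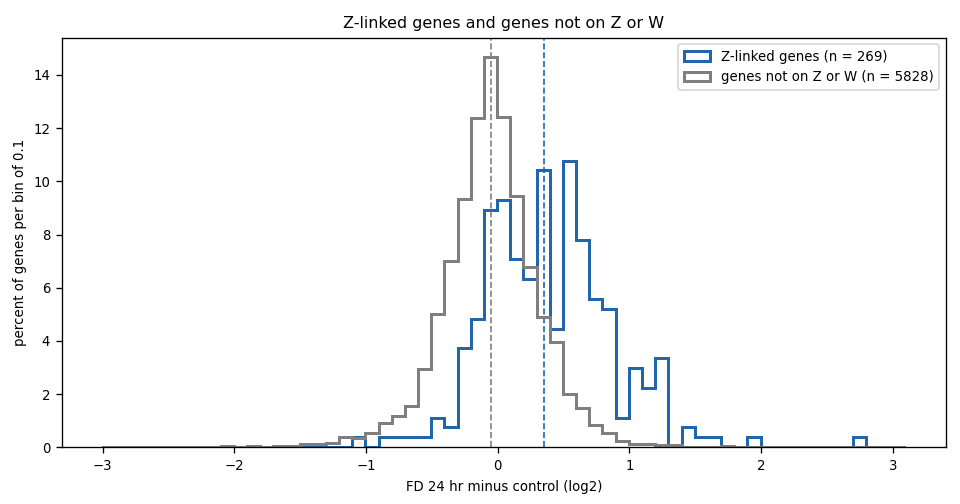
Percent of genes in bins of 0.1 of the FD 24 hr minus control difference (log2), for 269 Z-linked genes and 5828 genes not on Z or W, with dashed lines at the medians of 0.35 and -0.05. The Z-linked genes are shifted towards higher values at FD 24 hr.

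MLANA, a protein of melanosomes, had the largest difference on Z. It stood at 10.66 at FD 24 hr and 7.87 in the control pool, with 11.09 at FD 0 hr and 9.20 at FD 6 hr, a difference of 2.79 on 1 probe set. SRFBP1, ALDH7A1, CEP78, RAD1 and PHAX followed with 1.92, 1.60, 1.56, 1.43 and 1.40, and all of these genes were lowest in the control pool. TYRP1, an enzyme of melanin synthesis that is also Z-linked, stood at 12.27 at FD 24 hr and 11.15 in the control pool. The pigment genes outside Z did not all stand high, since DCT differed by 0.71, TYR by 0.13, PMEL by -0.05 and MITF by -0.41. The median of the 12 pigment genes outside Z was -0.06, and 0.05 with the mean over probe sets or the brightest probe set.

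Of the 269 Z-linked genes 57 lay below 0, and the 6 lowest are given here. NFIL3, a transcriptional repressor that takes part in the circadian clock, stood at 7.78 at FD 24 hr and 8.82 in the control pool, with 9.16 at FD 0 hr and 10.25 at FD 6 hr, so that FD 24 hr was the lowest and FD 6 hr the highest of the arrays. NFIL3 is the 1 lower gene counted on Z, and its difference of -1.04 was -0.99 under quantile normalisation and -0.98 under loess, short of the size counted. CPLX4, a complexin of ribbon synapses, stood at 9.65 at FD 24 hr and 10.52 in the control pool. SLC1A3, the glutamate transporter of Müller glia, stood at 10.26 at FD 24 hr and 10.94 in the control pool, with probe sets at -0.73 and -0.63. ENHO, KANK1 and LMBRD2 were lower by 0.77, 0.53 and 0.48.

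Sets of genes with a known role are described next by their members above the limit and outside the sex chromosomes. Over all such genes, 56.9% lay below 0, 0.532% were higher by 1 or more and 1.46% were lower by 1 or more. In sets this short, a single counted gene or none is not read as a result about the set. Of 29 lists with a median within 0.1 of 0, 17 changed sign under at least 1 alternative way of processing, and a median so near 0 is not read as a direction. Among 13 cone photoreceptor genes 5 were above 0 and 8 below, with a median of -0.11. OPN1LW, the red cone opsin, stood at 11.91 at FD 24 hr and 13.37 in the control pool, with 11.06 at FD 0 hr and 12.66 at FD 6 hr, a difference of -1.46 on 1 probe set. The cone phosphodiesterase subunits lay on the other side, with PDE6H at 11.56 at FD 24 hr and 10.79 in the control pool and PDE6C at 11.27 and 10.62. CNGB3, a subunit of the cone cation channel, stood at 7.47 and 6.88. The members of the cone list thus spread in both directions, and their median was close to that of all genes.

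The rod list had 8 genes with a median of 0.01. MAFA was the lowest, at 6.40 at FD 24 hr and 7.58 in the control pool, with 6.32 at FD 0 hr and 6.19 at FD 6 hr. PRPH2L, a tetraspanin of outer segment discs, was the highest at 8.73 and 7.63, with 8.98 and 8.34. In the list of outer segment upkeep, SLC24A1, the sodium, calcium and potassium exchanger of rods, stood at 8.40 at FD 24 hr against 9.40, 9.75 and 9.97 in the control, FD 0 hr and FD 6 hr pools. FD 24 hr was the lowest of the arrays for SLC24A1, and its difference of -1 lay at the size counted and was -0.96 and -0.94 under quantile normalisation and loess.

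Genes of the pigment epithelium and the visual cycle, the pathway that rebuilds the chromophore of the opsins, were mostly lower. Of 17 genes 1 was above 0 and 15 below, with a median of -0.21. A single gene was lower by 1 or more, against 1.46% of all genes. RDH5, the 11-cis retinol dehydrogenase, stood at 8.96 at FD 24 hr and 10.16 in the control pool, with 9.33 at FD 0 hr and 9.97 at FD 6 hr. LRAT, which esterifies retinol, stood at 6.47 at FD 24 hr and 7.34 in the control pool, with 7.35 and 6.95. RPE65 differed by -0.34, while RLBP1, which binds 11-cis retinal, was at 12.29 on both arrays. OTX2 and MITF, transcription factors of the RPE, differed by -0.49 and -0.41, but by -0.11 and -0.16 in their brightest probe sets. OTX2 is also a member of the bipolar cell list.

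Genes of retinoic acid, a signal made in the retina and choroid of the chick eye, showed both directions. Their 14 members had a median of -0.20. CYP26A1, which degrades retinoic acid, stood at 5.90 at FD 24 hr and 7.01 in the control pool, with 6.76 at FD 0 hr and 7.53 at FD 6 hr. ALDH1A3, which makes it, stood at 7.37 at FD 24 hr and 6.45 in the control pool, with 7.96 and 8.26. The Z-linked ALDH1A1 differed by 0.74, beside the Z-linked median of 0.35. CYP1B1 differed by -0.48.

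Müller glia genes had a median of -0.33 over 10 genes, of which 1 was above 0 and 8 below. FABP7, a fatty acid-binding protein, stood at 7.44 at FD 24 hr and 8.40 in the control pool, with 8.24 and 8.38 at FD 0 hr and FD 6 hr, so that FD 24 hr stood alone. CLU, the chaperone clusterin, stood at 9.92 at FD 24 hr and 10.80 in the control pool, with 9.64 and 9.78. SOX2 differed by -0.49 and GLUL by -0.36. None of these genes reached the size counted. The median level of the list was 10.65 at FD 24 hr and 11.22 in the control pool.

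Among the lists of retinal neurons, that of bipolar cells had a median of -0.27 over only 5 genes. Of these 1 was above 0 and 4 below, between -0.63 and 0.18. VSX1, a transcription factor of bipolar cells, stood at 11.63 at FD 24 hr and 12.26 in the control pool. Of 11 amacrine and horizontal cell genes 10 were below 0, with a median of -0.21, and TFAP2B was at 9.37 at FD 24 hr and 10.02 in the control pool, with 7.62 at FD 0 hr and 8.82 at FD 6 hr. CALB1, the exception, was higher by 0.99, but its 3 probe sets ran between -0.55 and 1.18. Ganglion cell genes were split with 6 above and 6 below 0, as NEFH, a neurofilament, differed by -0.70 and SNCG and STMN2 by 0.66 and 0.59. Their median of -0.03 has no settled sign, since it was 0.085 with the mean over probe sets or the brightest probe set and 0.095 once probe sets open to several transcripts were left out.

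Among 21 genes of synaptic vesicle release, 5 were above 0 and 16 below, and the median was -0.19. SYT1 was the only member past the size counted, against 1.46% of all genes lower by as much. DNM1, the dynamin of vesicle retrieval, stood at 9.55 at FD 24 hr and 10.28 in the control pool, with 8.03 at FD 0 hr and 9.14 at FD 6 hr. SNAP25, of the fusion complex, was at 11.24 and 10.99. For 21 potassium, sodium and calcium channels the median was -0.06, close to that of all genes, and KCNA2 was the member that stood apart.

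Most genes of the insulin, IGF and FGF list lay lower. In this list 5 of 16 genes were above 0, 11 below and 2 lower by 1 or more, with a median of -0.32. Over all genes outside the sex chromosomes, 56.9% lay below 0 and 1.46% were lower by 1 or more. ERBB4, a receptor for neuregulins, stood at 8.58 at FD 24 hr and 9.62 in the control pool, with 6.91 at FD 0 hr and 8.28 at FD 6 hr. IGFBP2, which binds insulin-like growth factors, stood at 7.68 at FD 24 hr and 8.70 in the control pool, with 8.11 and 7.80. FGFR1, IGF1R and PDGFB differed by -0.54, -0.52 and -0.53. The counts of ERBB4 and IGFBP2 rest on the scaling, since both came to between -0.99 and -0.96 under quantile normalisation and loess.

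In the Wnt list, with a median of -0.20 over 14 genes, FRZB, a secreted Wnt inhibitor, stood at 7.44 at FD 24 hr and 8.68 in the control pool, with 8.46 at FD 0 hr and 8.25 at FD 6 hr. FD 24 hr was the lowest of the arrays for FRZB, whereas SFRP1 differed by -0.40 and WIF1 by 0.03. BMP and TGF-beta genes, which include regulators of ocular growth, stayed within 0.5 in all 14 cases, with BMP4 at 0.00 and NOG at 0.36. Of 22 axon guidance genes 17 were below 0, with a median of -0.20, and SEMA3A, a repellent of axons, stood at 6.70 at FD 24 hr and 7.79 in the control pool, with 8.00 and 7.67.

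No gene of the matrix lists reached the size counted. The 20 collagen and basement membrane genes had a median of -0.09, with COL3A1 at 6.26 at FD 24 hr and 7.20 in the control pool and COL1A1 at 10.04 and 10.35. COL3A1 differed by -0.94 in the median of its probe sets and by -0.47 in the brightest. The 21 genes of matrix remodelling had a median of -0.19, with 13 below 0. MMP2, a gelatinase, stood at 8.83 at FD 24 hr and 9.16 in the control pool, with 10.61 at FD 0 hr and 9.76 at FD 6 hr. CSPG5, a neural proteoglycan, stood at 7.62 at FD 24 hr against 8.61, 8.62 and 8.65 in the control, FD 0 hr and FD 6 hr pools. CSPG5 differed by -0.99, just short of the size counted, and FD 24 hr alone stood low.

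All 8 endothelial genes above the limit were below 0, with a median of -0.17, led by SOX18 at 7.72 at FD 24 hr and 8.50 in the control pool. Macrophage and microglia genes were split, with 6 of 10 above 0 and 4 below, a lowest difference of -0.415 and a median of 0.18. LAPTM5 stood at 8.09 at FD 24 hr and 7.49 in the control pool, with 8.64 at FD 0 hr and 8.34 at FD 6 hr. C1QA, C1QB and C1QC, the chains of complement C1q, differed by 0.24, 0.38 and 0.25. Complement and coagulation genes had a median of 0.17 over 14 genes, and F3, tissue factor, stood at 8.73 at FD 24 hr and 7.93 in the control pool, with 9.01 and 9.61. Red blood cell genes had a median of 0.07, and HBA1, an alpha globin, stood at 13.01 and 12.55. The endothelin receptors EDNRA and EDNRB, at 7.26 and 6.67 at FD 24 hr and 6.98 and 6.42 in the control pool, were higher at FD 0 hr, at 9.22 and 8.04. No gene of these blood and vessel lists was counted as higher or lower.

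**Figure D4:**
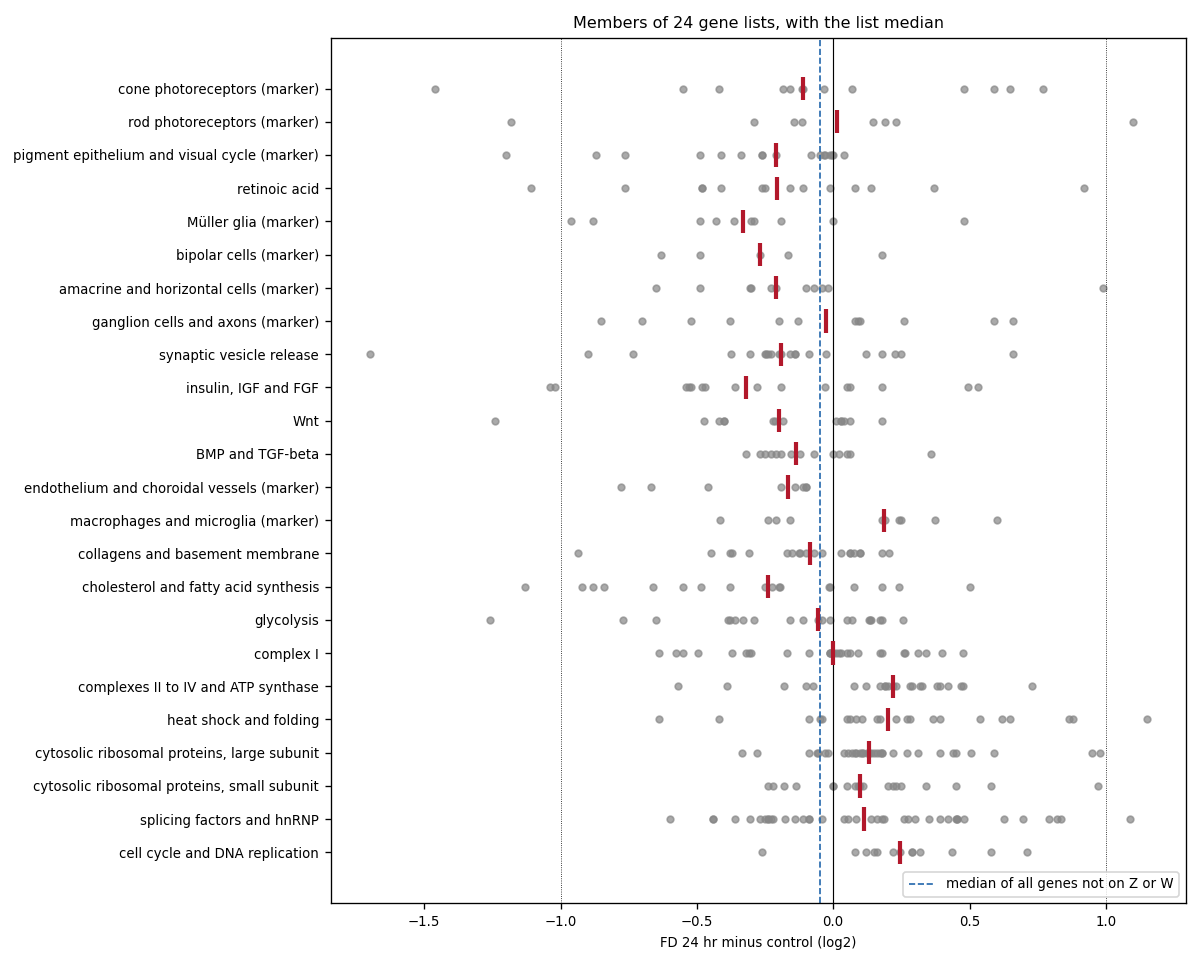
Difference between the FD 24 hr and control arrays (log2) of each member above the limit and outside Z and W in 24 gene lists, with the list median as a red bar, the median of all such genes (-0.05) as a blue dashed line and the size counted as dotted lines. Müller glia genes have a median of -0.33, and cell cycle genes of 0.24.

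In energy metabolism, the 21 glycolysis genes had a median of -0.06, close to that of all genes. The hexokinases, which start the pathway, stood lower, HK2 at 6.43 at FD 24 hr and 7.69 in the control pool, with 6.35 at FD 0 hr and 6.55 at FD 6 hr, and HK1 at 10.05 and 10.82, with 8.73 and 9.86. PFKL, a phosphofructokinase, stood at 10.40 at FD 24 hr and 11.05 in the control pool. PDK1, which restrains pyruvate dehydrogenase, stood at 8.30 at FD 24 hr against 9.60, 9.31 and 9.31 in the control, FD 0 hr and FD 6 hr pools. PDK1 differed by -1.30 in the median of 2 probe sets and by -0.61 in the brighter one. With HK2 and NDRG1 it made up the 3 of 18 hypoxia genes that were lower by 1 or more, against 1.46% of all genes. The median of the hypoxia list was -0.19, and 0.02 with the brightest probe set.

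Complex I genes had a median of 0.00 over 29 members, with 14 above and 14 below 0. In complexes II to IV and ATP synthase 18 of 23 were above 0, with a median of 0.22, and ATP5C1 stood at 9.31 at FD 24 hr and 8.57 in the control pool. ATP5B, the beta subunit of the same ATP synthase, went the other way, at 11.37 and 11.94. None of the genes of these respiratory lists reached the size counted. Fumarase, FH, differed by 0.59.

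Genes of cholesterol and fatty acid synthesis were mostly lower, with 14 of 18 below 0 and a median of -0.24. A single gene was lower by 1 or more, against 1.46% of all genes outside the sex chromosomes. SREBF2, the transcription factor of sterol synthesis, stood at 8.21 at FD 24 hr and 9.34 in the control pool, with 7.76 at FD 0 hr and 8.43 at FD 6 hr. FDPS, which makes farnesyl diphosphate, stood at 6.13 at FD 24 hr and 7.05 in the control pool, with 5.89 and 6.09, and FDFT1, the squalene synthase, at 9.56 and 10.40, with 8.99 and 9.52. INSIG1, which retains the sterol sensor in the endoplasmic reticulum, differed by -0.88 and INSIG2 by 0.50. CH25H, the cholesterol 25-hydroxylase of the bile acid and sterol list, was higher, at 7.03 at FD 24 hr and 5.97 in the control pool, with 8.07 at FD 0 hr and 8.35 at FD 6 hr.

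Antioxidant genes went both ways around a median of -0.01, which was -0.01 to 0.03 under other scalings of the arrays. Beside GSTA3, GSTA2 stood at 10.00 at FD 24 hr and 9.13 in the control pool, while GSTM2 stood at 8.03 and 8.74 and the extracellular superoxide dismutase SOD3 at 8.42 and 9.24. The near-identical copies of the alpha class may share probes.

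Genes of the heat shock and folding list were mostly higher, while those of the endoplasmic reticulum chaperone list were split. Of 22 heat shock and folding genes 17 were above 0, with a median of 0.20. A single gene was higher by 1 or more, against 0.532% of all genes outside the sex chromosomes. HSP90AA1 stood at 10.56 at FD 24 hr and 9.41 in the control pool, with 10.36 at FD 0 hr and 10.55 at FD 6 hr. HSPE1 and HSPD1, the mitochondrial chaperonins, stood at 11.30 and 9.14 at FD 24 hr and 10.42 and 8.28 in the control pool. The small heat shock proteins were split, as CRYAB differed by 0.65 and HSPB1 by -0.64. HSP90AA1 was at 0.79 in its brighter probe set, so its count depends on the probe set taken. In the endoplasmic reticulum, HSPA5, the chaperone BiP, stood at 8.33 at FD 24 hr and 7.40 in the control pool, with 7.31 and 7.98, while HERPUD1 differed by -0.53. Of the 20 genes of this list 9 were above 0 and 11 below, with a median of -0.03.

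**Figure D5:**
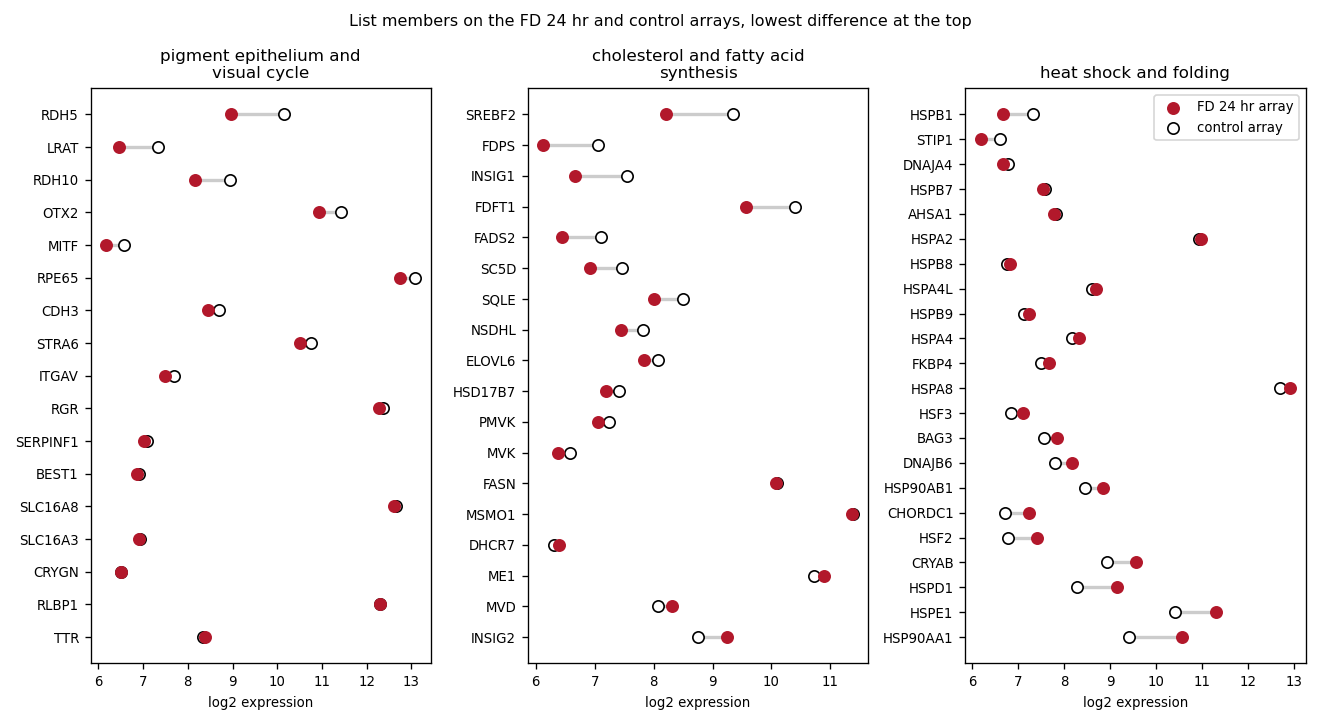
Log2 expression on the FD 24 hr (red) and control (open) arrays of the members above the limit and outside Z and W in 3 lists, ordered by their difference. RDH5 (8.96 and 10.16) and SREBF2 (8.21 and 9.34) lead the lower genes, and HSP90AA1 (10.56 and 9.41) is the last of the chaperones.

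Genes of the large ribosomal subunit stood slightly higher. Of 33 genes of the large subunit 26 were above 0, with a median of 0.13. Of 20 genes of the small subunit 14 were above 0, but their median of 0.0975 lay within 0.1 of 0 and is not read as a direction. RPL5 stood at 12.10 at FD 24 hr and 11.15 in the control pool, with 11.89 and 11.92 at FD 0 hr and FD 6 hr, and RPS24 at 10.42 and 9.45, with 10.75 and 10.27. In both the control array was the lowest, though neither reached a difference of 1. Both were named for a large difference in their list, which favours a low control value. The 52 mitochondrial ribosomal protein genes had a median of -0.06 and ran between -0.94 for MRPS14 and 1.33 for MRPS10.

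Splicing factors had a median of 0.11, with 23 of 40 above 0. LUC7L3 stood at 7.96 at FD 24 hr and 6.87 in the control pool, and CLK1 and CLK4, kinases of splicing factors, differed by 0.62 and 0.83. The chromatin list had a median of -0.10 with 18 of 24 genes below 0, and SMARCA4, the ATPase of the BAF complex, stood at 7.93 at FD 24 hr and 9.39 in the control pool, with 6.78 at FD 0 hr and 7.19 at FD 6 hr. Of 13 cell cycle genes 12 were above 0, with a median of 0.24. TYMS, the thymidylate synthase, stood at 9.17 and 8.46, and CDK1 at 7.53 and 6.95.

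Lists of genes that follow light and time of day held members on both sides of control. The hour of collection of the pools is not given in the sources used here. Of 15 clock genes 9 were below 0, near the 56.9% of all genes. Their median was -0.10, and 0.065 with the brightest probe set. CLOCK stood at 8.30 at FD 24 hr and 8.86 in the control pool, with 8.11 and 8.77. Among 7 dopamine and melatonin genes 5 were below 0, with a median of -0.26. GCH1, the rate-limiting enzyme of the cofactor of tyrosine hydroxylase, stood at 6.08 and 6.78, and ASMT, the last enzyme of melatonin synthesis, at 8.55 and 7.93. Of 12 immediate early genes 7 were below 0, with a median of -0.23 that was 0.02 once probe sets open to several transcripts were left out. KLF2, a transcription factor, stood at 7.33 at FD 24 hr and 8.34 in the control pool, a difference of -1.01 that was -0.97 and -0.96 under quantile normalisation and loess. EGR1, which marks activity of glucagon amacrine cells in the chick, stood at 8.40 and 7.85, with 7.58 at FD 0 hr and 8.36 at FD 6 hr.

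Among the retinal peptides, GCG, the precursor of glucagon, was the 1 gene of 15 past the size counted, against 0.532% of all genes. It stood at 8.72 at FD 24 hr and 7.68 in the control pool, with 9.01 at FD 0 hr and 8.60 at FD 6 hr, and its 2 probe sets went the same way. ADCYAP1, the precursor of the peptide PACAP, was lower, at 7.22 and 8.04, with 6.97 and 7.46, but differed by only -0.33 in its brightest probe set. VIP and its receptor VIPR2 differed by 0.19 and -0.14. The median of the list was 0.04.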

How the data were processed

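RNA of retina, RPE and choroid was hybridised to Affymetrix chicken arrays, 1 array for each of 4 pools. The authors normalised the arrays by RMA in Expression Console 1.1 and deposited log2 expression values with 2 decimals. The submitters' processing notes also name MAS5. Per the methods, the arrays were pre-processed alone and jointly with archived arrays of the induction of myopia, and the joint form was the one presented. Which form was deposited is not given in the sources used here. The deposited values were used unchanged.

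Of 38535 probe sets, 27178 had 1 gene symbol in the platform annotation, 177 several and 11180 none. A gene's value was the median of its probe sets with 1 symbol, grouped by Entrez ID. RefSeq genes for GRCg7b, which held 12872 of the genes, gave the chromosomes and synonyms. No sequence was at hand, so promoter motifs were not searched.

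Members and gene lists were chosen with earlier results of these data known. Named genes were the 15 with the largest difference in each direction outside Z and W, 6 on Z, all W-linked genes above the limit, and up to 4 per list, among genes with a name whose probe sets all went one way. Other list members are named as examples, after their values were seen. Medians are given for 58 of 63 lists, those with at least 5 members. The rule of counting by size was run on simulated data with changes larger than the size counted. That run checks the rule alone, and not the joining of probe sets, the lists or the split by chromosome. It says nothing of how certain the reported counts are. Alternatives covered the joining of probe sets, scaling, the limit and the size counted. Python 3.11.15, NumPy 2.4.6, pandas 2.3.3, statsmodels 0.14.6 and Matplotlib 3.10.9 were used.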

Additional observations from a re-analysis of the deposited data

Results flagged for a closer look

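Probe sets with no gene in the annotation were not part of the comparison, and some carried a signal above that of the control array. Of 3518 such probe sets above the limit, 50 were higher by 1 or more at FD 24 hr (1.42%) and 48 were lower (1.36%). These are single probe sets, whereas the 0.532% and 1.46% of genes outside the sex chromosomes rest on medians over probe sets. Probe sets with no gene also have no chromosome here, so that Z- and W-linked ones could not be set apart. With Z and W kept in, 60 of 6101 genes were higher and 87 lower. The highest of the probe sets with no gene stood at 8.14 at FD 24 hr and 5.28 in the control pool. The lowest stood at 6.15 at FD 24 hr and 8.63 in the control pool. With 1 array on each side, neither a sample far from the others nor a difference of effects between groups could be looked for.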

How the results depend on the processing

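No paired analysis was possible because each condition has 1 array. The 31 higher and 85 lower genes outside the sex chromosomes numbered 24 and 66 with the mean over probe sets, 62 and 103 with the brightest probe set, 10 and 21 among genes with at least 2 probe sets that all went one way, and 5 and 14 at a difference of 1.5. Under the other alternatives they stayed between 22 and 37 and between 60 and 92. The median of Z-linked genes was 0.49 among genes with at least 2 probe sets going one way and between 0.29 and 0.43 otherwise, and that of the genes outside the sex chromosomes ran between -0.14 and -0.02. Of 58 list medians 20 changed sign under at least 1 alternative, 17 of them within 0.1 of 0. The other 3 were those of the circadian clock and hypoxia lists, which turned to 0.065 and 0.02 with the brightest probe set, and of the immediate early genes, which turned to 0.02 when probe sets open to several transcripts were left out. Beside these 3, 13 list medians moved by 0.1 or more with the brightest probe set, 15 without probe sets open to several transcripts, 6 with the mean, 8 and 13 with the limit at the 50th and 75th percentile, and 13 of 20 among genes with at least 2 probe sets going one way. Of 46 genes named for their differences 9 have no value without probe sets open to several transcripts. The cause was not tested. Quantile normalisation, centring and loess moved none of 58 list medians by over 0.1 and none of 269 named genes by over 0.31. The deposited values were already normalised by RMA, so that these alternatives had little room to move them and are a weak check. Centring could change nothing between the 2 arrays compared, since both had a median of 5.74. The number of arrays, the signal of dim genes and the joining of probe sets limit all of these values.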
